A study of Mus musculus with 8 samples.

Results

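The 10 genes H2-K1, H2-D1, B2m, Tap1, Tap2, Tapbp, Psmb8, Psmb9, Nlrc5 and Erap1, which make and load the class I molecules of the major histocompatibility complex (MHC), were examined in RNA-seq of cultured Lewis lung carcinoma (LLC) cells, a mouse lung cancer line. They were chosen by name, and each matched 1 of the 55487 genes deposited. The series holds 4 wild-type libraries and 4 libraries of cells in which Ago2, the Argonaute that cleaves its target RNAs, was targeted with a lentiviral CRISPR-Cas9 vector under puromycin selection (ΔAgo2). Both groups carry the same labels for cell line, culture medium and batch, and neither received an interferon or another stimulus according to the labels. The study's methods describe sorting single cells into clones, so the ΔAgo2 libraries may all come from 1 clone, in which case an effect of Ago2 cannot be told apart from a difference between that clone and the wild-type line. The labels call the libraries of each genotype biological replicates, and nothing says that they came from separately made cell lines, so the p-values measure the spread between these libraries.

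MHC class I molecules show peptides from a cell's own proteins to CD8+ T cells. Proteasomes cut cytosolic proteins, and a variant called the immunoproteasome carries exchanged catalytic subunits. The TAP transporter moves the peptides into the endoplasmic reticulum, the aminopeptidase ERAP1 (ERAAP in the mouse) trims them, and the peptide-loading complex fits them onto a heavy chain paired with β2-microglobulin. Tumor cells often carry little surface class I, and interferons raise nearly every gene of the pathway, through the transactivator NLRC5 among other factors.

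In these cells 9 of the 10 genes had a lower mean level in the ΔAgo2 libraries and 1, Erap1, had a higher one, but no member passed an adjusted p of 0.05. The fold changes ran from 0.385 times the wild-type level for Nlrc5 to 2.71 times for Erap1. The test was edgeR's quasi-likelihood test on the counts, two-sided, with Benjamini-Hochberg adjustment over 14228 genes, and 42 of these genes, 0.295%, passed it. At an unadjusted p under 0.05, 4 members were lower (H2-K1, Tap1, Psmb9 and Nlrc5), against 4.62% of all genes, and 1 was higher (Erap1), against 2.72%. A fitted log2 fold change below 0 was also the more common sign among all genes, at 58.8%, and the median over all genes was -0.11, beside -0.79 over the 10 members. DESeq2, which called 399 genes, also called 0 of the 10 members.

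The libraries had 39628101 to 68530912 counts. Wild-type replicate 4 stood apart. Its median Spearman correlation with the other wild-type libraries was 0.864. The other wild-type libraries had 0.948 to 0.961 and the ΔAgo2 libraries 0.985 to 0.986, each within its genotype. The deviation of wild-type replicate 4 from the other wild-type libraries followed GC content (Spearman rho of 0.722 over genes, which are not independent). The same rho was -0.509 to -0.427 for wild-type replicates 1 to 3, whose comparison includes replicate 4. It was -0.157 to 0.336 for the ΔAgo2 libraries. The Ago2 transcript did not separate the genotypes, which stood at 303.6 ± 165 in wild-type and 352 ± 55.8 in ΔAgo2 libraries (SD, n = 4), in CPM, the count relative to a library size adjusted by TMM normalization, so the libraries are named by their labels and every direction below rests on those labels. A transcript level does not check a small CRISPR deletion. For the protein, the study describes a western blot of Ago2 in wild-type and ΔAgo2 LLC cells. The lung carcinoma label was compared with marker genes: Krt8, Krt18 and Vim were abundant, while Epcam was counted at most 1 time and Cdh1 at most 9 times in any library. The leukocyte markers Ptprc, Cd3e, Itgam and Adgre1 were at or under 3 counts in every library, which is treated as the floor here, and Csf1r had at most 8 counts. Cd68 was the exception, with wild-type values of 38.3, 5.30, 34.7 and 10.1 CPM and ΔAgo2 values of 4.56 to 16.5 CPM, and the mean CPM of Lyz2 was 1.17 over the wild-type and 0.846 over the ΔAgo2 libraries. The part of Cd68-expressing cells in the class I values was not tested, and fewer cells of a type cannot be told apart from less RNA per cell. Of 4 endothelial markers none exceeded 39 counts in a library, and of 6 fibroblast markers Pdgfrb had the lowest log2 fold change, -2.35 (edgeR adjusted p = 0.440), and Pdgfra the highest, 0.78.

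Of the 10 genes, 7 lie in the MHC region of mouse chromosome 17 (GRCm38, the assembly of mm10). Tapbp (chr17:33915899-33929292, plus strand) and H2-K1 (chr17:33996017-34000347, minus strand) are followed by a tight cluster of Psmb9 (chr17:34181987-34187764, minus strand), Tap1 (chr17:34187553-34197225), Psmb8 (chr17:34197721-34201454) and Tap2 (chr17:34203527-34216321), the last 3 on the plus strand, and farther on by H2-D1 (chr17:35262730-35267499, plus strand). B2m lies on chromosome 2 (chr2:122147686-122153083), Nlrc5 on chromosome 8 (chr8:94434356-94527272) and Erap1 on chromosome 13 (chr13:74639568-74693201), all on the plus strand.

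RefSeq promoter windows (GRCm38.p6; 250 bases before and 50 after an annotated start) were found for 8 of the 10 genes, not for Tap2 and Nlrc5. They were searched on both strands for GAAANNGAA (the core of an interferon-stimulated response element, ISRE), TTCNNNGAA (gamma-activated site), GGGNNTTCC (kappa B), TGACG (core of the X2 box) and CCAAT (Y box); the X2 and Y boxes belong to the module through which NLRC5 acts on class I promoters. The 250 bases before the start are shown for the heavy chains, for B2m, for the stretch that Tap1 shares with Psmb9, and for Erap1, the member that differed in the other direction, with motif matches in capitals (ATTGG is CCAAT read from the other strand).
H2-K1, chr17:34000348-34000597, minus strand: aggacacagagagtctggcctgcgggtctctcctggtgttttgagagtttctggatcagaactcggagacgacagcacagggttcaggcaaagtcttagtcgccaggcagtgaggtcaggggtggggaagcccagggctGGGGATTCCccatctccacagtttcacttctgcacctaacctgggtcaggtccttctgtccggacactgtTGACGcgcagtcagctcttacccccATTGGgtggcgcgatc
H2-D1, chr17:35262844-35263093, plus strand: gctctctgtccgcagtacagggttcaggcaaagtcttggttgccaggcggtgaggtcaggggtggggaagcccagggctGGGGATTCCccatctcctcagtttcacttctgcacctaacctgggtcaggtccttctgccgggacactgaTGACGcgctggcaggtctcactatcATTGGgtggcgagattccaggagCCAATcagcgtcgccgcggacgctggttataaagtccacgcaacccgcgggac
B2m, chr2:122147437-122147686, plus strand: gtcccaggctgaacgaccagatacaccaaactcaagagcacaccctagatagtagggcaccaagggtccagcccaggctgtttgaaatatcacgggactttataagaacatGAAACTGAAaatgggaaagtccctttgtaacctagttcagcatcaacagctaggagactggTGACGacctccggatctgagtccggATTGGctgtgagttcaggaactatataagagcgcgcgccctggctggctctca
Tap1, chr17:34187306-34187555, plus strand: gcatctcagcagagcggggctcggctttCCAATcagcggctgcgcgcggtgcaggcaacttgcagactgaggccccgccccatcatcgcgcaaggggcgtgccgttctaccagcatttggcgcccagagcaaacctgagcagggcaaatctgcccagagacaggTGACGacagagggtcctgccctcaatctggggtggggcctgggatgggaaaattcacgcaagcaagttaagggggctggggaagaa
Erap1, chr13:74639603-74639852, plus strand: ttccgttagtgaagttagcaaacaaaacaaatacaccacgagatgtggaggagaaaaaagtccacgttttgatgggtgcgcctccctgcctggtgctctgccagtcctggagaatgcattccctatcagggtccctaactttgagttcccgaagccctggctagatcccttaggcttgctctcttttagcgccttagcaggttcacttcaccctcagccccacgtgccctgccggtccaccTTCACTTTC
H2-K1 and H2-D1 carried the same arrangement, with the kappa B match 70 bases ahead of the X2 core and the X2 core 25 bases ahead of a Y box on the other strand. Aligned on the kappa B match, the windows of these genes were identical at 176 of 240 bases, or 73.3%. B2m held an ISRE core 139 bases before the start, an X2 core at 78 and a Y box at 53. The Tap1 and Psmb9 windows overlapped by 275 bases on opposite strands, so the X2 core and the Y box found there were the same letters for both genes. Erap1 held ISRE cores on the other strand, starting 9 and 3 bases before the start and overlapping each other, of which the second runs past the stretch shown, and it held neither an X2 core nor a Y box. The Psmb8 window held a gamma-activated site 97 bases before the start and the Tapbp window held Y boxes alone. Among all 32851 windows the ISRE core was found in 8.56%, the gamma-activated site in 8.30%, kappa B in 5.82%, the X2 core in 20.8% and the Y box in 37.4%, so the shorter motifs are common. These matches describe letters in a window and not binding. Other spellings of the same sites were not searched, so a window without a match may still hold one.

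Levels are compared between genes as TPM, which the authors scaled to gene length. The length that fits the TPM is that of all annotated exons of a gene together. It was 3660 bases for Psmb9, 2938 for H2-K1 and 5476 for Tap1, whose longest coding transcripts have 1352, 1619 and 2953. For B2m both lengths were 860 bases, and for Tap2 they were 3781 and 3442. The order of neighbouring genes and the percentiles below therefore depend on the length chosen. In wild-type libraries B2m was the most abundant member at 1608 ± 921 TPM (SD, n = 4), followed by H2-D1 at 595 ± 141, Tapbp at 111 ± 33.3, Tap2 at 65.7 ± 8.82 and H2-K1 at 53.4 ± 30.9. Tap1 was at 12.4 ± 1.74, Erap1 at 9.29 ± 5.70, Psmb8 at 5.38 ± 3.29, Nlrc5 at 2.84 ± 1.71 and Psmb9 at 1.75 ± 0.861 TPM. The ranges of neighbours in this order overlapped over the wild-type libraries except between H2-D1 and Tapbp and between H2-K1 and Tap1. B2m and H2-D1 stood at the 99.4th and 98.6th percentile of all tested genes by mean TPM, and Nlrc5 and Psmb9 at the 23.2nd and 17.7th. In ΔAgo2 libraries the order was the same except that Erap1, at 26.3 ± 5.96 TPM, stood above Tap1, at 8.01 ± 0.706 TPM, and all 4 ΔAgo2 libraries showed this. The wild-type order of these genes was not settled. Without replicate 4 Tap1 and Erap1 were level at 11.83 and 11.82 TPM, and in replicate 2 Erap1 (14.83) lay above Tap1 (10.07). In ΔAgo2 libraries Erap1 was level with H2-K1, at 27.4 ± 11.1 TPM, whose range it overlapped.

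**Figure D1:**
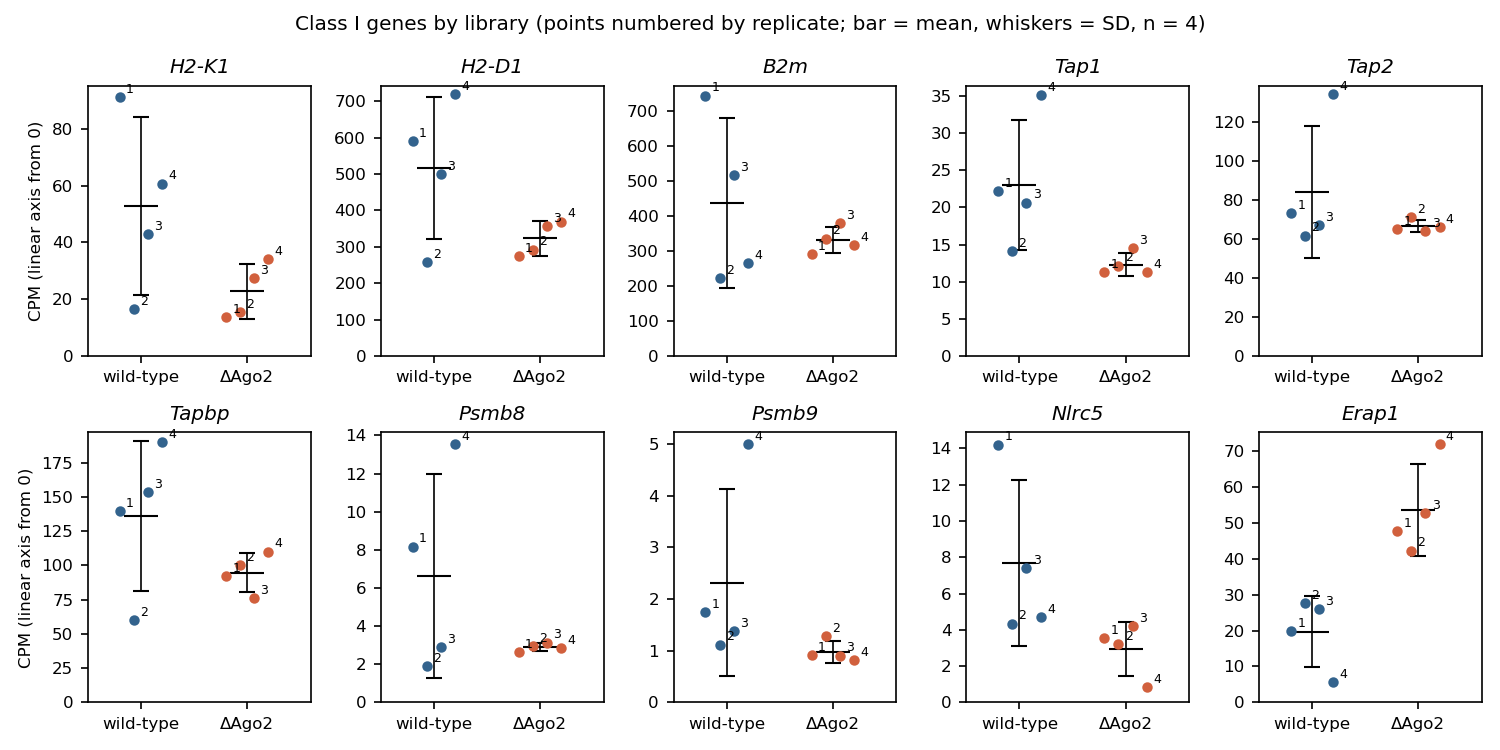
CPM of each class I gene in the wild-type (blue) and ΔAgo2 (orange) libraries, numbered by replicate, on linear axes from 0; bars are means and whiskers SDs of 4 libraries. The genotypes do not overlap for Nlrc5 and Erap1, and wild-type replicate 2 is the lowest wild-type library for the 9 genes other than Erap1.

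The heavy chains present the peptide. H2-K1 was at 91.1, 16.4, 43.0 and 60.7 CPM in wild-type replicates 1 to 4 and at 13.6, 15.5, 27.5 and 34.2 CPM in ΔAgo2 replicates 1 to 4. Wild-type replicates 1, 3 and 4 lay above every ΔAgo2 library, while wild-type replicate 2 lay among them. The log2 fold change was -1.22 (SE 0.50, 95% interval -2.33 to -0.11, edgeR adjusted p = 0.632), and it was -0.81 without wild-type replicate 1 and -1.12 without wild-type replicate 4. H2-D1, the more abundant heavy chain, was at 590, 257, 501 and 719 CPM in wild-type and at 274, 293, 358 and 370 CPM in ΔAgo2 libraries. Wild-type replicate 2 lay below all 4 ΔAgo2 libraries and the other 3 wild-type libraries above them. Its log2 fold change was -0.68 (SE 0.33, interval -1.41 to 0.06, edgeR adjusted p = 0.706), and -0.46 without wild-type replicate 4. B2m, the light chain that pairs with these heavy chains, was at 744, 223, 518 and 265 CPM in wild-type and at 292, 335, 380 and 317 CPM in ΔAgo2 libraries. Here the wild-type libraries split, with replicates 1 and 3 above and replicates 2 and 4 below every ΔAgo2 library. The log2 fold change of B2m was -0.40 (SE 0.38, interval -1.25 to 0.45, edgeR adjusted p = 0.810), and it was -0.016 without wild-type replicate 1 and -0.98 after a correction for GC content.

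Tap1 and Tap2 form the peptide transporter and tapasin (Tapbp) tethers it to the heavy chain. Tap1 was at 22.2, 14.1, 20.7 and 35.1 CPM in wild-type replicates 1 to 4 and at 11.3, 12.2, 14.5 and 11.3 CPM in ΔAgo2 replicates 1 to 4. The groups overlapped only where ΔAgo2 replicate 3 lay above wild-type replicate 2. Its log2 fold change was -0.90 (SE 0.32, interval -1.61 to -0.19, edgeR adjusted p = 0.516), and -0.62 without wild-type replicate 4. Tap2 was at 73.0, 61.6, 67.1 and 134 CPM in wild-type and at 65.1, 71.2, 63.8 and 65.9 CPM in ΔAgo2 libraries. Only wild-type replicate 4 and, by a small margin, replicate 1 lay above every ΔAgo2 library. Its log2 fold change of -0.34 (SE 0.29, interval -0.99 to 0.32, edgeR adjusted p = 0.788) came to -0.0067 without wild-type replicate 4. Tapbp was at 140, 60.4, 153 and 190 CPM in wild-type and at 92.4, 100, 76.0 and 110 CPM in ΔAgo2 libraries. Wild-type replicate 2 was again below all ΔAgo2 libraries and the other 3 above them, with a log2 fold change of -0.52 (SE 0.34, interval -1.28 to 0.24, edgeR adjusted p = 0.740), and -0.30 without wild-type replicate 4.

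Psmb8 and Psmb9 encode the immunoproteasome subunits LMP7 and LMP2 and were among the least abundant members. The raw counts of Psmb8 were 402, 136, 195 and 436 in the wild-type libraries and 163, 124, 128 and 151 in the ΔAgo2 libraries, in replicate order. As CPM these were 8.18, 1.93, 2.90 and 13.5 in wild-type and 2.65, 2.95, 3.14 and 2.86 in ΔAgo2 libraries. The ΔAgo2 libraries lay close together, and wild-type replicates 1 and 4 alone stood above all of them. Its log2 fold change was -1.19 (SE 0.57, interval -2.45 to 0.07, edgeR adjusted p = 0.706) and came to -0.56 without wild-type replicate 4. For Psmb9 the counts were 86, 79, 93 and 161 in wild-type and 56, 54, 37 and 43 in ΔAgo2 libraries, or 1.75, 1.12, 1.38 and 5.0 CPM against 0.912, 1.28, 0.907 and 0.813 CPM. ΔAgo2 replicate 2 alone lay above a wild-type library, replicate 2. Its log2 fold change was -1.23 (SE 0.53, interval -2.41 to -0.06, edgeR adjusted p = 0.663), and -0.52 without wild-type replicate 4, so the size of both immunoproteasome differences rested on that library.

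Nlrc5, the class I transactivator, was at 14.2, 4.35, 7.40 and 4.69 CPM in wild-type replicates 1 to 4 and at 3.55, 3.23, 4.19 and 0.832 CPM in ΔAgo2 replicates 1 to 4. All wild-type libraries lay above all ΔAgo2 libraries, by a narrow margin between wild-type replicate 2 and ΔAgo2 replicate 3, and ΔAgo2 replicate 4 was far below the rest with 44 counts. Nlrc5 was the 1 lower member whose groups did not overlap, where 2.98% of all tested genes were lower without overlap. The log2 fold change was -1.38 (SE 0.56, interval -2.62 to -0.14, edgeR adjusted p = 0.613). It was -0.89 without wild-type replicate 1, the highest library, -1.06 without ΔAgo2 replicate 4 and -1.54 without wild-type replicate 4.

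Erap1, the trimming aminopeptidase, was at 19.9, 27.6, 25.9 and 5.59 CPM in wild-type replicates 1 to 4 and at 47.6, 42.3, 52.6 and 71.8 CPM in ΔAgo2 replicates 1 to 4. Every ΔAgo2 library lay well above every wild-type library, and wild-type replicate 4 was the lowest of the 8. Among all tested genes 3.09% were higher in this way without overlap. The log2 fold change was 1.44 (SE 0.45, interval 0.45 to 2.43, unadjusted p = 0.00874, edgeR adjusted p = 0.400). Without wild-type replicate 4 it was smaller, at 1.14, with an adjusted p of 0.0689, and after the GC correction it was 1.19 with an adjusted p of 0.0566, the smallest edgeR gave for any member under any of the 20 alternative fits. The exons of Erap1 share 834 of their 7280 bases with Cast, the calpastatin gene on the opposite strand, and 13.3% of the 100-base stretches of its longest transcript also occur in Cast. The CPM of Cast itself averaged 187 ± 94.6 in wild-type and 181 ± 23.6 in ΔAgo2 libraries (SD, n = 4; log2 fold change -0.05). The library kit keeps the strand, but the strand setting of the counting is not given in the sources used here. How reads in the shared stretch were counted is therefore not known. The same holds for Psmb9, with 9.02% of its 100-base stretches also in Tap1 on the opposite strand, and for Tapbp, with 14% also in another gene, nearly all of them in Gm19412 on the opposite strand. The exons of Tapbp also share 149 of their 3628 bases with Zbtb22 on the same strand, which no strand setting separates.

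**Figure D2:**
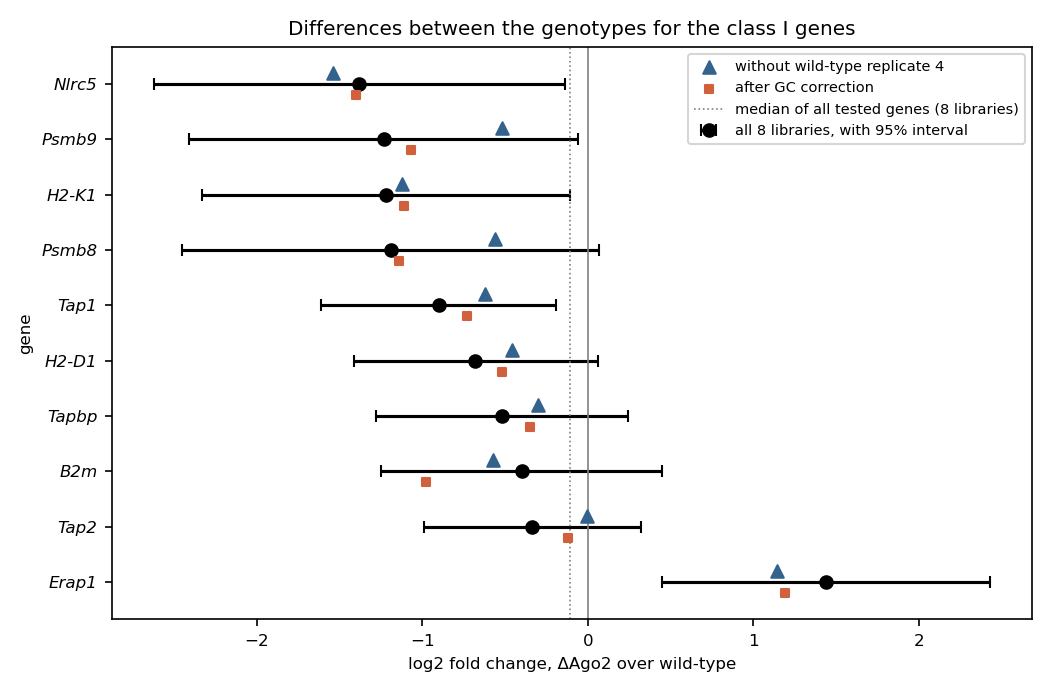
Log2 fold change of the 10 genes, ΔAgo2 over wild-type, from edgeR with 95% intervals (black circles), without wild-type replicate 4 (blue triangles) and after GC correction (orange squares); the dotted line is the median of all tested genes, -0.11. Erap1 lies to the right of 0 at 1.44 and the other 9 to the left, with Tap2 at -0.0067 without wild-type replicate 4.

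The direction of each of the 10 genes was the same in all 20 alternative fits, between which the median of all genes ranged from -0.21 to 0.22. Relative to that median, 8 or 9 members lay lower under every fit. The wild-type libraries varied more than the ΔAgo2 libraries: the SD of log2 CPM within the group was larger in wild-type for 9 of the 10 genes, with Nlrc5 as the exception, and its median over the genes was 0.80 in wild-type, 0.69 without replicate 4 and 0.22 in ΔAgo2. The share of all tested genes with a larger wild-type SD was not counted. Over all tested genes the wild-type libraries also agreed less with each other (median Spearman 0.864 to 0.961) than the ΔAgo2 libraries (0.985 to 0.986). The larger spread is therefore not particular to these 10 genes. Wild-type replicate 2 was the lowest wild-type library for all 9 lower members and the highest for Erap1, and for 6 of those 9 it lay below the ΔAgo2 mean. Wild-type replicate 4 was the highest wild-type library for 6 members and replicate 1 for 3. Without wild-type replicate 4 the median over the 10 genes was -0.54, beside -0.04 over all genes. In exact permutation tests of the CPM over libraries, two-sided and unadjusted, Nlrc5 and Erap1 gave p = 0.0286, the smallest that 4 against 4 libraries allow, and the other 8 members gave 0.0571 to 0.486.

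Ratios of genes within a library do not depend on the scaling between libraries, and 6 of them were compared. The size of each ratio depends on the gene lengths behind the TPM, which for Tap1 was 5476 bases beside a longest coding transcript of 2953. For Tap1 to Tap2 the log2 difference between the genotypes was -0.57 from raw counts as well. The transporter subunits were unequal: Tap1 was 21.0%, 15.8%, 21.3% and 18.1% of Tap2 by TPM in wild-type replicates 1 to 4 and 12.0%, 11.8%, 15.7% and 11.8% in ΔAgo2 replicates 1 to 4. All ΔAgo2 libraries lay below all wild-type libraries, replicate 3 by a small margin. The log2 difference was -0.57, with an exact permutation p of 0.0286, which became 0.171 when adjusted over the 6 ratios, and it was -0.59 without wild-type replicate 4.

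Each catalytic immunoproteasome subunit replaces a constitutive one, Psmb8 for Psmb5, Psmb9 for Psmb6 and Psmb10 for Psmb7. Psmb8 was 4.36%, 1.25%, 2.82% and 2.00% of Psmb5 by TPM in wild-type replicates 1 to 4 and 1.52% to 1.90% in ΔAgo2 libraries, with a log2 difference of -0.51 (exact permutation p = 0.286), which was -0.21 without wild-type replicate 1 and -0.81 without wild-type replicate 2. Psmb9 was 0.626%, 0.385%, 0.631% and 0.487% of Psmb6 in wild-type and 0.343%, 0.435%, 0.381% and 0.310% in ΔAgo2 libraries. Its difference was -0.52 (exact permutation p = 0.0571, 0.171 over the 6 ratios), and the 2 groups overlapped at wild-type replicate 2. Transcripts of the constitutive subunits outnumbered both immunoproteasome subunits in every library. Psmb10 reached a larger share of Psmb7, from 7.82% to 14.3% in wild-type replicates 1 to 3, 43.5% in replicate 4 and 10.3% to 16.3% in ΔAgo2 libraries. Its difference was -0.16 with all libraries and 0.35 without wild-type replicate 4 (exact permutation p = 0.857 with all).

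B2m was 3.33, 2.46, 2.89 and 1.03 times the summed H2-K1 and H2-D1 by TPM in wild-type replicates 1 to 4 and 3.06, 3.29, 2.98 and 2.38 times in ΔAgo2 replicates 1 to 4. Wild-type replicate 4 was the low library, and the log2 difference of 0.39 (exact permutation p = 0.486) became 0.02 without it. B2m has the lowest GC content of the members (41.2% in its longest transcript, beside 41.5% in Erap1 and 52.5% to 57.1% in the others). H2-K1 was 13.6%, 5.59%, 7.55% and 7.41% of H2-D1 in wild-type and 4.36%, 4.66%, 6.74% and 8.12% in ΔAgo2 libraries, a log2 difference of -0.48 (exact permutation p = 0.200) with overlapping groups, which was -0.23 without wild-type replicate 1.

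**Figure D3:**
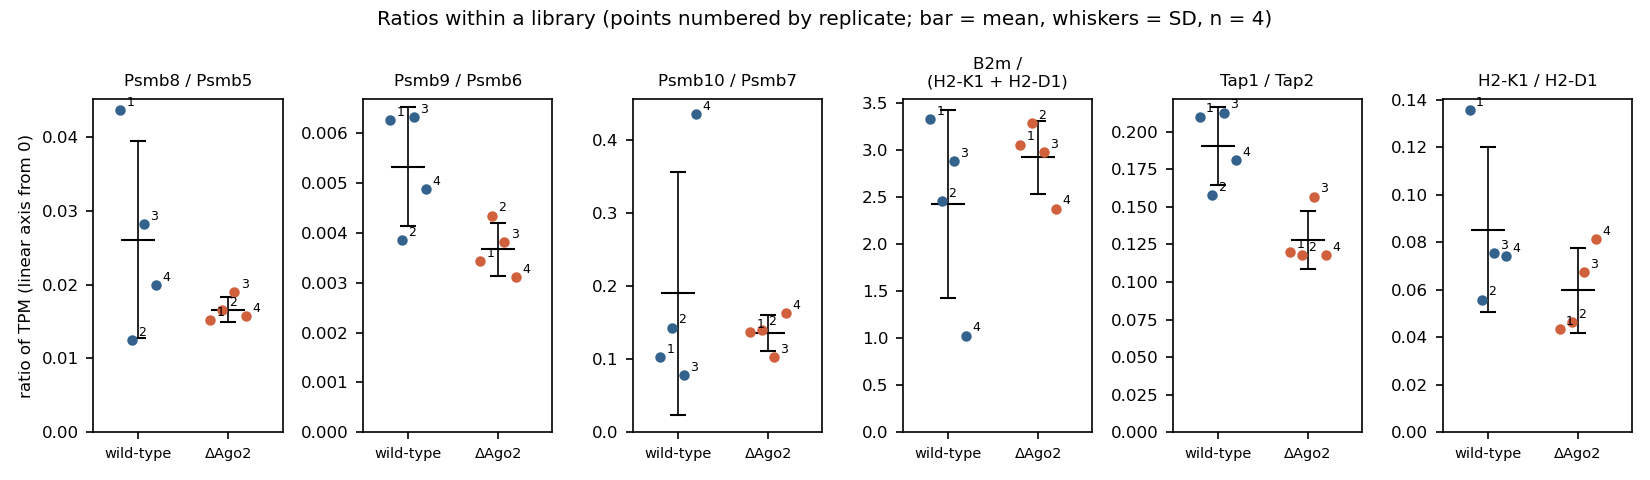
Ratios of TPM within each library for 6 pairs, in wild-type (blue) and ΔAgo2 (orange) libraries numbered by replicate, on linear axes from 0; bars are means and whiskers SDs of 4 libraries. The groups do not overlap for Tap1 over Tap2, and wild-type replicate 4 stands apart for Psmb10 over Psmb7 and for B2m over the heavy chains.

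The rest of the pathway was read from lists of 88 genes, of which 85 matched a deposited gene (Raet1a, Raet1b and Raet1c did not) and 68 were tested. None passed an adjusted p of 0.05 in edgeR. At an unadjusted p under 0.05, 4 of the 68 were lower (Calr, H2-T22, H2-DMa and H2-DMb1), against 4.62% of all tested genes, and 1 was higher (Cd1d1), against 2.72%, and the median log2 fold change was -0.08. The groups did not overlap for Calr (lower) and for Cd1d1 and Irf8 (higher), where 2.98% of all tested genes were lower and 3.09% higher without overlap. The lists and the members were not compared by a test. Of each list the genes with the lowest and the highest log2 fold change are named.

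The remaining immunoproteasome gene Psmb10 and the proteasome activator genes Psme1, Psme2 and Psme3 had a median of -0.18. Psmb10 had the lowest value, -0.45 (edgeR adjusted p = 0.858), and Psme2, a subunit of the activator PA28, the highest, 0.03. Without wild-type replicate 4 all 4 lay above 0, with a median of 0.42, while Psmb8 and Psmb9 remained below 0. The 14 constitutive proteasome subunits had a median of -0.08, from Psmb3 at -0.96 (adjusted p = 0.709) to Psma4 at 0.34. Psmb3 reached 564 CPM in wild-type replicate 4, beside 126 to 141 CPM in wild-type replicates 1 to 3, and its value without that library was -0.091. The constitutive partners Psmb5 and Psmb6 were at -0.68 and -0.78, and at 0.25 and 0.016 without wild-type replicate 4, and Psmb7 was at 0.18.

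Of 6 other peptidases that trim or destroy peptides, 5 lay below 0, from Thop1, a cytosolic peptidase that degrades them, at -0.62 (0.50 without wild-type replicate 4) to Tpp2, a cytosolic peptidase of larger fragments, at 0.41. Erap1 at 1.44 lay above all 6. Without wild-type replicate 4, 3 of the 6 peptidases lay above 0 and 3 below, with a median of -0.04. Among 7 chaperones of class I folding and loading, Calr, the calreticulin of the peptide-loading complex, had the lowest value. Calr was at 554, 588, 1034 and 1576 CPM in wild-type replicates 1 to 4 and at 469, 534, 442 and 417 CPM in ΔAgo2 replicates 1 to 4. All wild-type libraries lay above all ΔAgo2 libraries, and the log2 fold change was -1.01 (SE 0.36, edgeR adjusted p = 0.524; -0.63 without wild-type replicate 4). The highest value of this list was that of Uggt1, which checks glycoprotein folding, at 0.18.

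Other class I heavy chains and class I-like genes ranged from the floor to a wild-type mean of 45.7 TPM, that of H2-T22. Of 16, 6 were at the floor (H2-Q1, H2-Q2, H2-Q10, H2-T3, H2-T24 and H2-M2) and 8 were tested. These genes resemble each other and H2-D1 in sequence, and 4.64% of the 100-base stretches of the longest H2-D1 transcript also occurred in another gene, so their counts are uncertain, while none of those of H2-K1 did. Of the 8, 7 lay below 0. H2-T22, a nonclassical heavy chain, was at 36.3, 26.2, 56.2 and 98.0 CPM in wild-type and at 27.1 to 31.8 CPM in ΔAgo2 libraries, with a log2 fold change of -0.90 (SE 0.39, adjusted p = 0.658; -0.44 without wild-type replicate 4). Cd1d1, which presents lipids to NKT cells, was the exception, with CPM of 1.36, 1.02, 2.05 and 0.807 in wild-type and of 3.97, 4.16, 2.60 and 2.71 in ΔAgo2 libraries. Its groups did not overlap, and its log2 fold change was 1.35 (SE 0.42, edgeR adjusted p = 0.395). The NKG2D ligands, stress-induced relatives read by NK cells, had 3 tested genes above 0, from Raet1e at 0.23 to Ulbp1 at 0.97 (adjusted p = 0.738), and H60c was at the floor.

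The 16 transcription factors that act on class I promoters had a median of -0.03. Rfxank, a subunit of the RFX complex that binds the X box and carries NLRC5, had the lowest value at -0.67 (adjusted p = 0.740), and -0.17 without wild-type replicate 4. Irf8, an interferon regulatory factor, had the highest, with CPM of 3.80, 1.36, 1.58 and 5.43 in wild-type and of 6.04, 5.77, 6.94 and 6.22 in ΔAgo2 libraries, a log2 fold change of 1.04 (SE 0.47, edgeR adjusted p = 0.678) without overlap of the groups. The 8 tested genes of class I repression and surface turnover ran from Marchf9, a membrane ubiquitin ligase, at -0.47 to Ezh2, the methyltransferase of Polycomb repressive complex 2, at 0.37, with a median of 0.07.

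The class II genes were read as a contrast. Their transactivator Ciita, H2-Aa and Ctss were at the floor, and H2-Ab1, H2-Eb1 and Cd74 had at most 5, 11 and 16 counts. The exceptions were H2-DMa and H2-DMb1, which encode the peptide editor H2-DM and lie in the MHC region as well. H2-DMa was at 5.67, 2.04, 9.05 and 15.5 CPM in wild-type replicates 1 to 4 and at 2.07, 2.07, 1.79 and 1.59 CPM in ΔAgo2 replicates 1 to 4. H2-DMb1 was at 9.31, 2.48, 9.61 and 23.8 CPM in wild-type and at 2.96, 2.64, 3.97 and 1.32 CPM in ΔAgo2 libraries. In both, wild-type replicate 2 lay among the ΔAgo2 libraries and the other 3 above them, as for H2-K1. Their log2 fold changes were -2.10 (SE 0.55, edgeR adjusted p = 0.277) and -2.05 (SE 0.62, edgeR adjusted p = 0.382), and -1.56 and -1.38 without wild-type replicate 4.

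**Figure D4:**
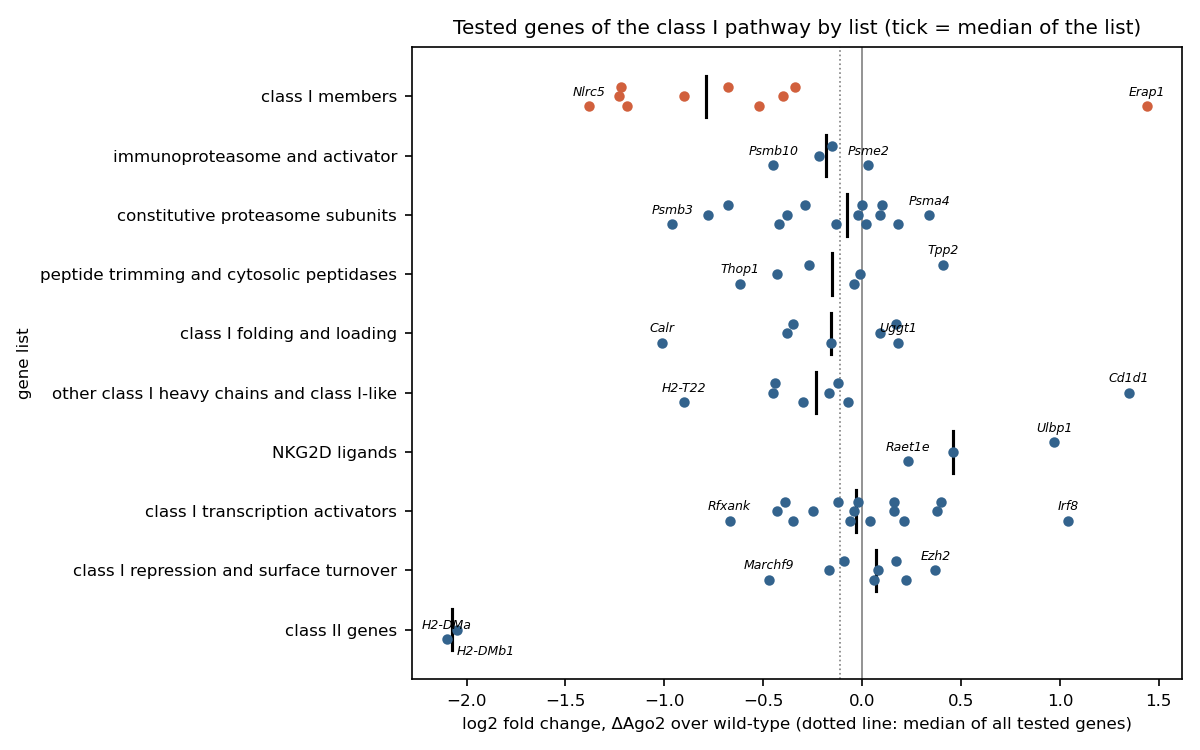
Log2 fold change, ΔAgo2 over wild-type, of each tested gene of the class I members (orange) and of 9 further lists (blue), with a tick at the median of each list and a dotted line at the median of all tested genes; the lowest and highest gene of each list are named. The members have a median of -0.79, and the other lists lie between -0.23 and 0.46, apart from the pair of class II genes at -2.07.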

How the data were processed

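Total RNA of cultured cells was made into stranded mRNA libraries and sequenced as paired reads of 100 bases. Reads were aligned by the authors against ribosomal RNA, then against mm10 (STAR is named in the submitters' processing notes), and counted on genes with featureCounts, and the authors deposited raw counts and TPM values for 55487 genes. The annotation release and the strand setting are not given in the sources used here.

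Genes were filtered with filterByExpr, normalized with TMM and tested with edgeR 4.0.16 (R 4.3.3), two-sided, with the genotype as the only factor and adjusted p under 0.05 as the threshold, over 14228 genes. Dividing the log2 fold change by the root of F gave its standard error. The total counts per library, 39628101 to 68530912, set the counting precision, and the intervals given reflect the spread between libraries. Every member passed the filter. Genes at or under 3 counts in every library were treated as at the floor.

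Alternatives were DESeq2 1.42.0, limma 3.58.1 (voom, with and without sample weights, and on the deposited TPM as log2(TPM + 1) and log2(TPM + 0.1)), other scalings and filters, the replicate number as a block, each library left out in turn and a stricter threshold. A GC correction (loess span 0.3), alone and with the block, was added after the data were seen. Single values and log2 TPM ratios were compared by exact permutation tests over libraries.

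The members and gene lists were chosen with earlier results of these data known. Every member is named; of each other list, any gene with an adjusted p under 0.05, otherwise the genes with the lowest and the highest log2 fold change, the constitutive partners in the ratios and the genes at the floor. Psmb10 to Psmb7 was compared as a ratio in addition. Genes named for an unadjusted p, H2-DMb1's levels and the class II genes with few counts were chosen after their values were seen. Gene positions came from GENCODE for GRCm38 and promoter windows from RefSeq for GRCm38.p6, and 93 identifiers had no match. The result for 1 marker gene is not reported here.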

Additional observations from a re-analysis of the deposited data

Results flagged for a closer look

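In 32 groups of 4 libraries (10 genes and 6 ratios in each genotype), 2 held a library whose gap to its nearest neighbour took up more of the group's whole range than the 95% critical value of Dixon's test allows, and chance alone flags about 5% of groups. Nlrc5 in ΔAgo2 replicate 4 was at 0.832 CPM beside 3.23 to 4.19 CPM in the other ΔAgo2 libraries, a gap of 0.839 of the range on the log2 scale. The ratio of Tap1 to Tap2 in ΔAgo2 replicate 3 was 15.7% beside 11.8% to 12.0% in the others, a gap of 0.949 of the range on the log2 scale. Without ΔAgo2 replicate 4 the log2 fold change of Nlrc5 was -1.06, and without ΔAgo2 replicate 3 the log2 difference of the Tap1 to Tap2 ratio was -0.67.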

How the results depend on the processing

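No member changed direction or passed an adjusted p of 0.05 in any of the 20 alternative fits, and the median log2 fold change of the members stayed within the spread between libraries, from -1.0 without wild-type replicate 2 to -0.42 with log2(TPM + 1). What moved was the count of all genes called: from 42 it went to 399 with DESeq2, 257 with voom and sample weights, 143 without the filter, 2 with at least 10 counts in every library, 15 with log2(TPM + 1), 68 with the GC correction, 71 with the GC correction and the replicate block, and 6 at an adjusted p under 0.01; the causes were not tested. Leaving out 1 library gave 1 (without ΔAgo2 replicate 1) to 113 genes (without wild-type replicate 4). The replicate numbers did not pair the libraries (correlations of same-numbered deviations -0.14, -0.049, 0.38 and 0.028), and a fit with the number as a replicate block called 18 genes and 0 members, with Erap1 at 1.57 (adjusted p = 0.609). The smallest adjusted p of a member was 0.0566, for Erap1 with the GC correction; other sizes that moved most were B2m (-0.98 to -0.016), Psmb8 (-1.51 to -0.49) and Psmb9 (-1.48 to -0.45). Counts of Psmb9 (37 to 161) and of Nlrc5 in ΔAgo2 replicate 4 (44) limit the precision of these genes.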
